A study of Mus musculus with 16 samples.

Results

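Slc9a2, Npbwr1, Trpm3 and BC006965 are 4 of the 47729 genes counted in somatic cells of the fetal mouse testis. They are low transcripts that were chosen because they were higher at embryonic day E15.5 in cells without Inhba, which encodes the beta A subunit of activin A. Their E15.5 values, and every comparison that contains an E15.5 library, are therefore given as a description with no test. Only the comparison of genotypes at E13.5 used libraries that played no part in the choice.

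The cells came from testes of mice of the strain labelled C57/Bl6/129svJ and the cross labelled Inhba x Oct4 GFP. The 4 groups were wild type (WT) and Inhba knockout (KO) at E13.5 and at E15.5, with 4 libraries in each, 16 in all. Gonads of all groups were freed of mesonephros, and viable cells without the GFP reporter were sorted away from the GFP-positive germ cells. The series design gives 3 to 4 animals for each age and genotype, so some of the 4 libraries of a group may share an animal, and p-values measure only the spread between these libraries. The sources used here do not state which part of Inhba was deleted. No library was treated with an agent.

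Activin A belongs to the TGF-beta superfamily. It binds a type II receptor at the cell surface, which recruits and activates a type I receptor, and the activated receptor passes the signal to SMAD transcription factors in the nucleus. In the fetal testis it is made by fetal Leydig cells and acts on Sertoli cells, the supporting cells that form the testis cords and divide in this period.

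The products of the 4 genes differ. Slc9a2 encodes a sodium-hydrogen exchanger, which carries sodium into the cell in exchange for a proton and is best known from epithelia of the gut. Npbwr1 encodes a G protein-coupled receptor for neuropeptides B and W that couples to inhibitory G proteins and is best known from the brain. Trpm3 encodes a calcium-permeable cation channel that opens with heat and with the steroid pregnenolone sulfate. BC006965 is not a membrane protein gene by its annotation. Its 18 annotated transcripts hold 0 coding segments, and the annotation gives its type as a processed transcript, that is, RNA without a reading frame.

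The positions are those of the GRCm38 annotation, the build named in the submitters' processing notes. Slc9a2 (ENSMUSG00000026062) lies at chr1:40680574-40769273 on the plus strand with 3 transcripts and 6984 bases of exon. Npbwr1 (ENSMUSG00000033774) lies at chr1:5913707-5917398 on the minus strand and is a single-exon gene of 3692 bases. Trpm3 (ENSMUSG00000052387) spans 856365 bases at chr19:22139046-22995410 on the plus strand, with 24 transcripts, 14 different start sites and 24437 bases of exon. BC006965 (ENSMUSG00000041674) lies at chr11:112663927-112781976 on the minus strand. Its farthest upstream start is 248 bases from the start of Sox9 (chr11:112782224-112787760), which is transcribed the other way and encodes the transcription factor that drives Sertoli cell differentiation.

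RefSeq promoter sequences were at hand for 2 of the 4 genes, with 3 start sites, and are shown because the genes were chosen as higher together at E15.5. Each is the 250 bases before a start on GRCm38.p6, written 5′ to 3′ along the strand of the gene. The BC006965 start is an inner one, 70.6 kb from the farthest upstream start beside Sox9, whose promoter is not shown. Slc9a2 and Npbwr1 were not in the table.
BC006965, chr11:112711357-112711606, minus strand: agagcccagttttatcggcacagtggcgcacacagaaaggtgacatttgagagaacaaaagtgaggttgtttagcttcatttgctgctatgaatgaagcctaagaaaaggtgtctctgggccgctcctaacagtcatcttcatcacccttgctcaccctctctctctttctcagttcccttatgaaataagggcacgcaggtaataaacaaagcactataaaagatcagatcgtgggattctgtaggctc
Trpm3 upstream start, chr19:22138796-22139045, plus strand: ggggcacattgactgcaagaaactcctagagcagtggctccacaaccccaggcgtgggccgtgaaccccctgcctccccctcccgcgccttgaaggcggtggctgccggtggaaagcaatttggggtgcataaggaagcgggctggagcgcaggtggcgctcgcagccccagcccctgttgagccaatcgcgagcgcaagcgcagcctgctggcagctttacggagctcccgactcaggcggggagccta
Trpm3 downstream start, chr19:22447958-22448207, plus strand: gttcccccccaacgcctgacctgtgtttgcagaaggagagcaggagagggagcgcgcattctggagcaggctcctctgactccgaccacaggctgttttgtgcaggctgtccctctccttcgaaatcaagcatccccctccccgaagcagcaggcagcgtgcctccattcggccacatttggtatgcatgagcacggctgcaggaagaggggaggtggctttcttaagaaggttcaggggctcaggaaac

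The 3 promoters differ in base composition. The upstream Trpm3 promoter has a G and C content of 66.4% with 17 CG dinucleotides, the downstream one 59.2% with 9, and that of BC006965 45.2% with 5. Over the 32851 promoters of the table the medians are 52.4% and 6. The searched motifs were GTCTAGAC and CAGACA, both bound by SMAD proteins, AACAAT, bound by SOX proteins, and AAGGTCA, bound by the steroidogenic factor NR5A1. On both strands none of the 4 motifs was found in the 3 sequences, so no letters are in capitals. The share of all promoters with a match is 0.167%, 17.1%, 9.42% and 4.08% in that order. The absence of a match says only that these letters are not in these windows.

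Trpm3 also carries the microRNA gene Mir204 within its body, on the same strand. The mature miR-204-5p lies at chr19:22750610-22750631 and is shown with its seed, bases 2 to 8, in capitals, because it is the other product of the Trpm3 locus.
mmu-miR-204-5p: uUCCCUUUgucauccuaugccu
The count table held 3 counts for Mir204 over all 16 libraries. Counts from long RNA libraries do not measure a mature microRNA, so its level was not analysed here.

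Other annotated genes that overlap the members had few reads. The counts were not split by strand, so reads from overlapping genes on opposite strands cannot be told apart. Gm37623, antisense to Slc9a2, shared 0 exon pairs with it and had 25 counts over all libraries. C330002G04Rik, a noncoding gene on the other strand of Trpm3, shared 2 exon pairs and had 31 counts, and Gm27151 shared 2 and had 1.

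Total counts were between 6131592 and 23324810 per library, the lowest in KO E13.5 replicate 3. Inhba itself was lower in every KO library than in every WT library of its age, and it was called in both comparisons (log2 fold change -3.54 ± 0.28, SE, edgeR adjusted p = 1.6e-05 at the younger age and -2.77 ± 0.26, adjusted p = 5.1e-05, at the older). Markers of the expected somatic cells were present: 12 of 12 Sertoli markers and 10 of 10 fetal Leydig markers were detected in each group. The granulosa marker Foxl2 had mean levels of 0.0141 to 0.0583 CPM (counts per 1000000 counts of the library). KO E13.5 replicate 1 stood apart: its 10 germ cell markers summed to 3630 CPM, against 10.7 to 37.6 CPM in the other 15 libraries, and its 12 Sertoli markers summed to 495 CPM, against 2160 to 2710 CPM in the other 3 KO E13.5 libraries. Results on the 4 genes, their neighbours and their families are given with it and without it.

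At E13.5 the 4 genes did not pass the test between genotypes, and at E15.5 they stood 4.42 to 8.39 times higher in KO than in WT. In WT, the E15.5 mean was 8.62% of the E13.5 mean for Slc9a2, 5.79% for Npbwr1, 29.4% for BC006965 and 48.9% for Trpm3. In KO, the E15.5 mean was 74.5% of the E13.5 mean for Slc9a2, 50.5% for Npbwr1, 107% for BC006965 and 199% for Trpm3. In bulk RNA, fewer cells of a type and less RNA per cell cannot be told apart.

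**Figure D1:**
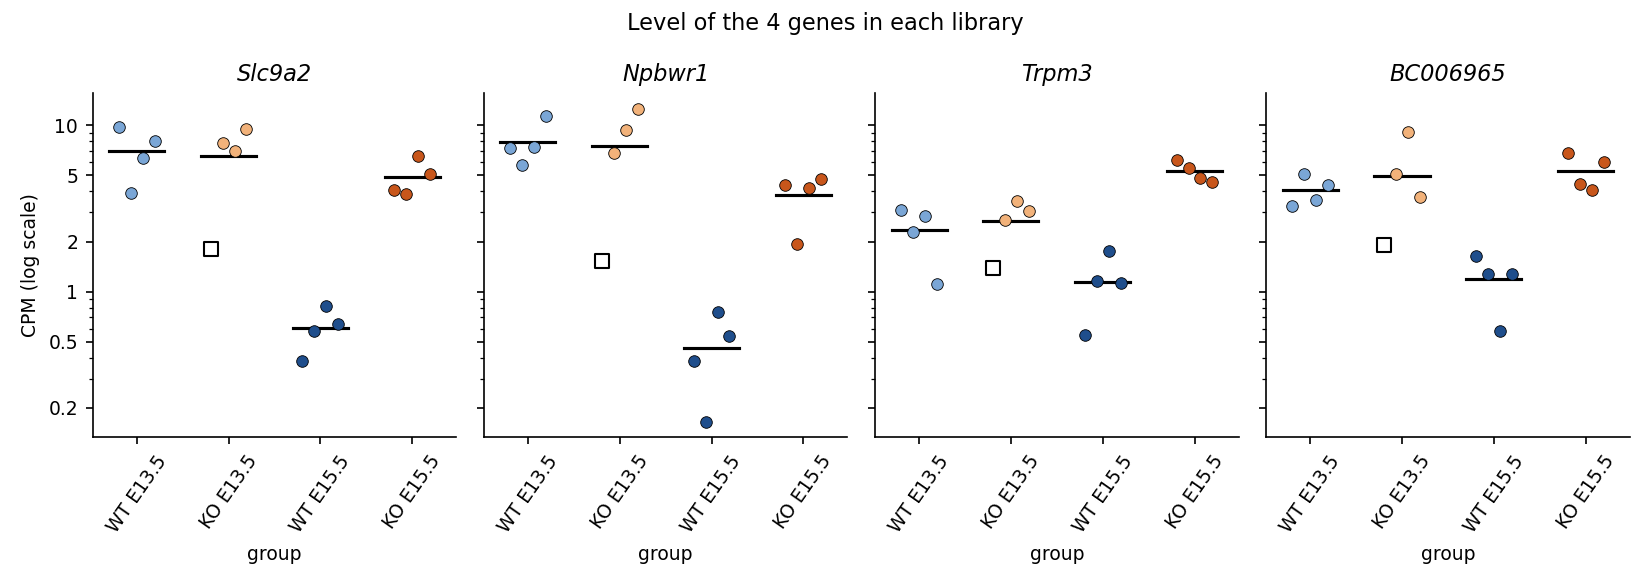
Level of each gene in each library, in CPM on a log axis, by group (n = 4 libraries each). Points are libraries, bars are group means, and the open square is KO E13.5 replicate 1. WT E15.5 is the lowest group for all 4 genes, and all KO E15.5 points lie above all WT E15.5 points.

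Slc9a2, the exchanger, was at 9.71, 3.89, 6.33 and 8.08 CPM in replicates 1 to 4 of WT E13.5 and at 1.80, 7.86, 6.99 and 9.55 CPM in KO E13.5. It was at 0.382, 0.578, 0.816 and 0.639 CPM in WT E15.5 and at 4.06, 3.86, 6.52 and 5.08 CPM in KO E15.5. The WT E15.5 libraries were thus all low and apart from the other 3 groups, whose ranges overlapped. Behind these values stood 7 to 14 raw counts per library for WT E15.5 and 56 to 143 for KO E15.5. From highest to lowest, the group means were 7.0 ± 2.49 CPM (SD, n = 4) in WT E13.5, 6.55 ± 3.34 in KO E13.5, 4.88 ± 1.22 in KO E15.5 and 0.604 ± 0.179 in WT E15.5. The first 3 overlapped within their SDs. Without replicate 1, the KO E13.5 mean was 8.13 ± 1.30 CPM (n = 3), the highest of the 4, and the KO E15.5 mean was then 60.0% of it.

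Npbwr1, the neuropeptide receptor, had the same order of groups, with WT E15.5 still lower against WT E13.5. Its levels were 7.34, 5.79, 7.38 and 11.4 CPM in WT E13.5 and 1.52, 6.77, 9.32 and 12.5 CPM in KO E13.5. In WT E15.5 they were 0.382, 0.165, 0.758 and 0.540 CPM, from 4 to 13 counts, and in KO E15.5 4.36, 1.93, 4.20 and 4.72 CPM. No WT E15.5 library reached the lowest library of any other group. All KO E15.5 libraries lay below all WT E13.5 libraries, so the level in KO was intermediate. The means were 7.97 ± 2.38 CPM (SD, n = 4) in WT E13.5, 7.54 ± 4.66 in KO E13.5, 3.80 ± 1.27 in KO E15.5 and 0.461 ± 0.250 in WT E15.5. The KO E13.5 mean was 9.54 ± 2.89 CPM (n = 3) without replicate 1, and the KO E15.5 mean was 39.9% of that.

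Trpm3, the cation channel, was the gene of the 4 with its highest libraries all in KO E15.5. It was at 3.11, 2.29, 2.86 and 1.11 CPM in WT E13.5, at 1.38, 2.68, 3.49 and 3.05 CPM in KO E13.5 and at 0.545, 1.16, 1.75 and 1.13 CPM in WT E15.5. In KO E15.5 it was at 6.19, 5.52, 4.84 and 4.59 CPM, so these 4 libraries lay above all 12 others. The WT ranges of the 2 ages overlapped, because WT E13.5 replicate 4, with 20 counts, was as low as WT E15.5. KO E15.5 had a mean of 5.28 ± 0.72 CPM (SD, n = 4), KO E13.5 of 2.65 ± 0.91, WT E13.5 of 2.34 ± 0.89 and WT E15.5 of 1.15 ± 0.49, and the 2 middle means did not differ beyond their SDs. Without replicate 1, the KO E13.5 mean was 3.08 ± 0.41 CPM (n = 3) and the KO E15.5 mean was 172% of it.

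BC006965, the noncoding transcript beside Sox9, was at 3.27, 5.06, 3.57 and 4.35 CPM in WT E13.5 and 1.90, 5.11, 9.15 and 3.69 CPM in KO E13.5. It was at 1.64, 1.28, 0.583 and 1.28 CPM in WT E15.5 and at 6.80, 4.42, 4.06 and 6.01 CPM in KO E15.5. The WT E15.5 libraries were again the lowest. The other 3 groups overlapped, with means of 5.32 ± 1.30 CPM (SD, n = 4) for KO E15.5, 4.96 ± 3.09 for KO E13.5 and 4.06 ± 0.80 for WT E13.5, against 1.19 ± 0.44 for WT E15.5. The highest KO E13.5 value, 9.15 CPM, came from 55 counts in the shallowest library. The KO E13.5 mean was 5.98 ± 2.83 CPM (n = 3) without replicate 1, and the KO E15.5 mean was 88.9% of that.

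Set against all genes tested, the 4 genes stood below the median in every group, only a little for Npbwr1 and Slc9a2 at E13.5, and lowest in WT E15.5. In WT E13.5 they stood above 30.0% to 46.5% of the 20076 genes tested by mean CPM, and in KO E13.5 above 31.1% to 44.8%. In KO E15.5 they stood above 34.9% to 39.7%, and in WT E15.5 above 3.65% for Npbwr1, 7.27% for Slc9a2, 17.3% for Trpm3 and 18.0% for BC006965. Per kilobase of exon, WT E13.5 levels were 2.16 CPM per kb for Npbwr1, 1.00 for Slc9a2, 0.704 for BC006965 and 0.0958 for Trpm3. Of these, Slc9a2 and BC006965 overlapped within their SDs. In KO E15.5 the levels were 1.03 CPM per kb for Npbwr1, 0.923 for BC006965, 0.699 for Slc9a2 and 0.216 for Trpm3. There Npbwr1, BC006965 and Slc9a2 all overlapped within their SDs. The exon length of Trpm3 is summed over its 24 transcripts, which lowers its level per kilobase.

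At E13.5, the comparison that played no part in choosing the genes, 0 of the 4 were called by edgeR's quasi-likelihood test with an adjusted p under 0.05. Over all genes tested, 0.00498% were called in that comparison, which was 1 gene, Inhba. The log2 fold change of KO over WT was -0.10 ± 0.39 (SE) for Slc9a2 (edgeR adjusted p = 0.924), -0.09 ± 0.47 for Npbwr1 (0.946), 0.15 ± 0.36 for Trpm3 (0.871) and 0.24 ± 0.38 for BC006965 (0.794). None of the 4 had an unadjusted p under 0.05, against 2976 of all genes, and DESeq2 and limma-voom called none of them either. The 95% confidence intervals of these log2 fold changes, from the same fit, were -0.93 to 0.73, -1.10 to 0.91, -0.62 to 0.91 and -0.57 to 1.05 in the same order. They allow changes of up to 2.07-fold upward for BC006965, so equal levels were not shown.

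Leaving out KO E13.5 replicate 1 turned the sign for Slc9a2 and Npbwr1 without a call. With the other 15 libraries the log2 fold changes at E13.5 were 0.23 ± 0.27 (SE) for Slc9a2 (edgeR adjusted p = 0.781), 0.27 ± 0.32 for Npbwr1 (0.791), 0.37 ± 0.33 for Trpm3 (0.695) and 0.50 ± 0.32 for BC006965 (0.549). In this fit 0 of the 4 were called, against 0.0049% of the genes tested. KO libraries all above WT libraries were seen at E13.5 for 0 of the 4 genes, against 3.51% of genes, and for 0 of the 4 without replicate 1, against 6.9%.

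**Figure D2:**
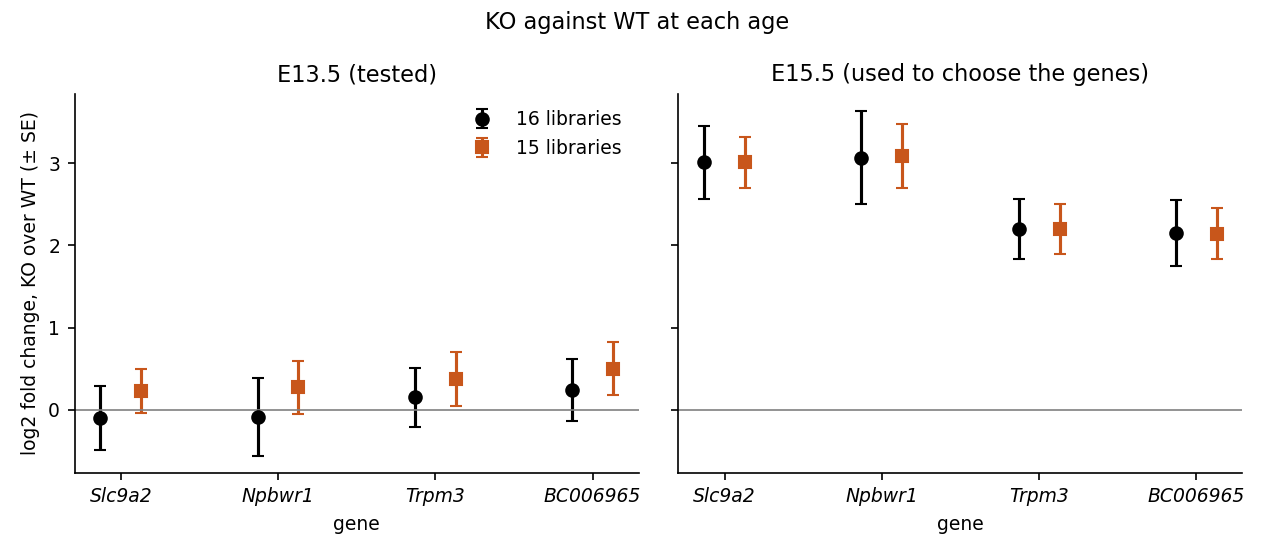
Log2 fold change of KO over WT with its SE at E13.5 and E15.5, in the fit of 16 libraries (circles) and of 15 libraries without KO E13.5 replicate 1 (squares). At E13.5 the values run from -0.10 to 0.50 with SEs of 0.27 to 0.47, and at E15.5, which chose the genes, from 2.14 to 3.09.

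The fold changes that chose the genes, KO over WT at the older age, were on the log2 scale 3.01 ± 0.45 (SE) for Slc9a2, 3.07 ± 0.57 for Npbwr1, 2.20 ± 0.37 for Trpm3 and 2.15 ± 0.40 for BC006965. In that comparison, at E15.5, 0.149% of genes were called in either direction and 0.0548% (11 genes) as higher in KO, and the 4 are among these 11 by choice. Closest inside the adjusted p of 0.05 were BC006965 and Myo7b at 0.0456 and, next, Npbwr1 at 0.0423, and closest outside were Ntn4, Gjb2, Pla2r1 and Vsig1, all at 0.0607. Without KO E13.5 replicate 1, 1.5% of genes were called at E15.5 and 0.637% as higher in KO. The fold changes of the 4 genes then differed by at most 0.02 on the log2 scale. All KO libraries lay above all WT libraries for 4 of 4 genes, as the choice made likely, against 3.62% of genes.

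The change with age was described in each genotype. In WT, E15.5 against E13.5 gave a log2 fold change of -3.52 ± 0.46 (SE) for Slc9a2, -4.12 ± 0.57 for Npbwr1, -1.76 ± 0.40 for BC006965 and -1.03 ± 0.37 for Trpm3. All WT E15.5 libraries lay below all WT E13.5 libraries for 3 of the 4, Trpm3 being the exception, against 12.6% of genes. In KO the values were -0.41 ± 0.40 for Slc9a2, -0.97 ± 0.48 for Npbwr1, 0.15 ± 0.38 for BC006965 and 1.02 ± 0.36 for Trpm3.

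In KO the E15.5 libraries lay below all E13.5 libraries for 0 of the 4 genes, against 8.51% of genes. Without KO E13.5 replicate 1 they did so for 2 of the 4, Slc9a2 and Npbwr1, against 15.4%, and the log2 changes with age in KO were -0.74, -1.31, -0.11 and 0.80 for Slc9a2, Npbwr1, BC006965 and Trpm3. The KO E15.5 libraries lay above all KO E13.5 libraries for 1 of the 4, Trpm3, against 10.2% of genes (2040 of 20076). Without replicate 1 the pattern again held for 1 of the 4, Trpm3, and for 3014 of the 20076 genes. Both patterns together, E15.5 below E13.5 in WT and KO above WT at E15.5 with no overlap in either, held for 3 of the 4 genes, against 1.9% of genes (382 genes). The WT E15.5 libraries are part of both patterns, and the choice of the genes used them.

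Relative to the WT E13.5 mean, KO E15.5 stood at 69.7% for Slc9a2, 47.7% for Npbwr1, 131% for BC006965 and 226% for Trpm3. All KO E15.5 libraries lay below all WT E13.5 libraries for Npbwr1 and above all of them for Trpm3, while the ranges of these 2 groups overlapped for Slc9a2 and BC006965. The share of all genes with either pattern was not counted, so these ranges only describe the genes named.

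Slc9a2 and Npbwr1 followed each other most closely across libraries. The Pearson correlation of their log2 CPM over the 16 libraries was 0.960, and 0.959 over 15. It was 0.797 between Slc9a2 and BC006965, 0.788 between Npbwr1 and BC006965, 0.679 between Slc9a2 and Trpm3, 0.667 between Trpm3 and BC006965 and 0.568 between Npbwr1 and Trpm3. The points share the 4 groups and the library depth, and all 4 genes were chosen on the same E15.5 libraries, so these are descriptions.

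**Figure D3:**
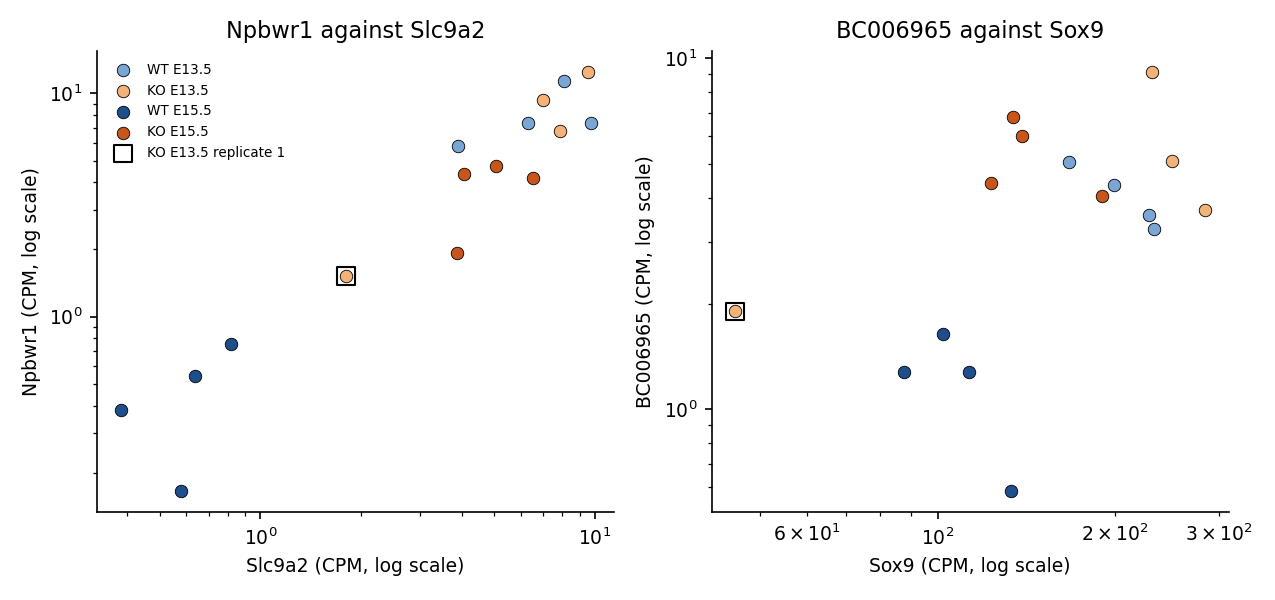
Npbwr1 against Slc9a2 and BC006965 against Sox9, each point a library, both axes in CPM on a log scale, colours by group, with an open square round KO E13.5 replicate 1. Npbwr1 and Slc9a2 lie along a line, with WT E15.5 at its low end. BC006965 is lower in WT E15.5 than in KO E15.5. The Sox9 levels of these groups overlap only through WT E15.5 replicate 3 (133 CPM) and KO E15.5 replicate 2 (123 CPM).

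Among all genes tested, the 3 with the highest correlation to Slc9a2 over 16 libraries were Npbwr1, Rnase1, a secreted ribonuclease (0.958), and Kif19a, a kinesin motor (0.955). For Npbwr1 they were Kif19a (0.967), Slc9a2 and Mmp15, a membrane-bound metalloproteinase (0.951). Kif19a had means of 6.84 CPM in WT E13.5, 1.10 in WT E15.5 and 3.60 in KO E15.5, and Mmp15 was at 45.4, 11.1 and 22.7 CPM in the same groups.

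The genes most like Trpm3 were Tbx22, a T-box transcription factor (0.889), Itih5l-ps, listed as a pseudogene (0.845), and Vsig1, a cell surface protein of the immunoglobulin superfamily (0.834). Tbx22 had means of 1.12 CPM in WT E13.5, 0.299 in WT E15.5 and 3.84 in KO E15.5. Those most like BC006965 were Gm42527 (0.855), Gm7457 (0.847) and 2700046A07Rik (0.846), each below 2 CPM in every group mean. Over the 15 libraries without KO E13.5 replicate 1, 5 of these 12 places were kept. Among those that took the other places, the highest were Erbb3 for Slc9a2 (0.976) and the collagen gene Col27a1 for Npbwr1 (0.985), Gabra5 for Trpm3 (0.833) and St3gal1 for BC006965 (0.874).

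Sox9, the nearest gene to BC006965, did not pass the test in either comparison. Its levels were 233, 167, 228 and 199 CPM in WT E13.5, 45.4, 250, 231 and 284 CPM in KO E13.5, 102, 113, 133 and 87.9 CPM in WT E15.5 and 134, 123, 190 and 139 CPM in KO E15.5. The ranges of the E15.5 genotypes overlapped only through WT replicate 3 and KO replicate 2. At E13.5 its log2 fold change of KO over WT was -0.03 ± 0.36 (SE, edgeR adjusted p = 0.977), or 0.30 ± 0.16 (0.455) with 15 libraries. At E15.5 it was 0.42 ± 0.36 (adjusted p = 1.0), or 0.42 ± 0.14 (0.193) with 15 libraries. In WT, Sox9 at E15.5 was at 52.7% of its E13.5 mean, against 29.4% for BC006965.

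Other genes beside the members were not called with 16 libraries. Within 500 kb of the 4 genes lay 46 counted genes, of which 20 were tested, and edgeR called 0 at E13.5 and 0 at E15.5, against 0.00498% and 0.149% of all genes. At an unadjusted p under 0.05 there were 2 of the 20 at each age, against 14.8% of all genes at E13.5 and 4.99% at E15.5. DESeq2 and limma-voom called 0 of them at both ages. Over all genes DESeq2 called 53 at E13.5 and 106 at E15.5, and limma-voom 1 and 24. With such low shares, 0 called among 20 genes is near the share over all genes. Slc9a4, a related exchanger 49.8 kb from Slc9a2, had 14 counts over all libraries and was not tested. Nearest on its other side was Gm37915 at 2.11 kb, with 30 counts, and the nearest on the 2 sides of Npbwr1, Gm37429 at 69.0 kb and Gm19214 at 132 kb, had 3 and 1. Of those nearest to Trpm3, 2410080I02Rik at 139 kb had 0 counts, and Gm5514, a pseudogene at 201 kb, was at 9.14 CPM in WT E15.5 and 12.6 in KO E15.5 (edgeR adjusted p = 0.958). Mfsd9, 2.77 kb beyond the end of Slc9a2, had a log2 fold change of 0.40 ± 0.41 (SE) at E15.5 (edgeR adjusted p = 1.0). With 15 libraries 1 neighbour was called at E15.5, in a fit that called 1.5% of all genes. It was Tmem2, a cell surface hyaluronidase 281 kb from Trpm3, with 49.4 CPM in WT E15.5 and 64.9 CPM in KO E15.5 (log2 fold change 0.40, edgeR adjusted p = 0.0411).

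**Figure D4:**
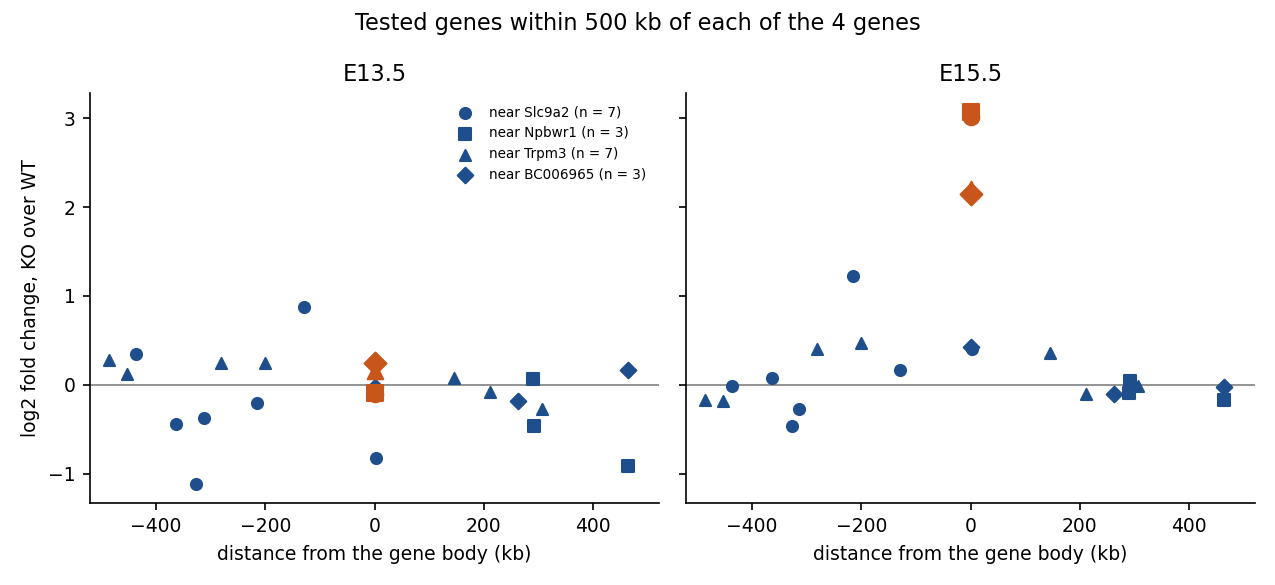
Log2 fold change of KO over WT of the 20 tested genes within 500 kb of the members (blue), by distance from the member's gene body in kb, toward lower coordinates on the left, at each age. Orange symbols are the members themselves at distance 0, in the shape of their neighbours; at E15.5 those of Trpm3 and BC006965 lie on each other. At E15.5 the members lie between 2.15 and 3.07 and the neighbours between -0.46 and 1.22.

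Genes of the same families as the members were examined in the same fit. The counts at an unadjusted p under 0.05 that follow stand beside 14.8% of all genes tested at E13.5 and 4.99% at E15.5. The counts called stand beside 0.00498% and 0.149% of all genes by edgeR. DESeq2 called 53 and 106 genes at the 2 ages and limma-voom 1 and 24. With such low shares, 0 called in lists of this size is near the share over all genes. Of 16 other sodium-hydrogen exchangers and partner proteins, 14 were tested, 0 were called at E15.5 by edgeR (0 at an unadjusted p under 0.05, 0 by DESeq2 and 0 by limma-voom), and their median log2 fold change was -0.01, against -0.002 over all genes. The 3 highest per kilobase were Chp2, Tesc and Chp1, calcium-binding partners of exchangers, with log2 fold changes at E15.5 of -0.51, -0.50 and 0.13. At E13.5, 0 were called and the median was -0.05, with 3 at an unadjusted p under 0.05.

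Bicarbonate transporters and carbonic anhydrases, which act with exchangers on cell pH, gave a like picture. Of 17 genes, 13 were tested and 0 called at either age by any of the 3 tools, with 1 at an unadjusted p under 0.05 at each age and a median of 0.03 at E15.5. That gene at E15.5 was Slc4a8, with 10.9 CPM in WT and 6.79 CPM in KO (edgeR adjusted p = 0.740). The 3 highest per kilobase were Slc4a1, the red cell anion exchanger, Car2 and Slc4a7, with log2 fold changes at E15.5 of 0.03, 0.41 and -0.12.

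Of the 7 other TRPM channels, 4 were tested and 0 called at either age by any of the 3 tools, and 0 had an unadjusted p under 0.05. The median log2 fold change at E15.5 was 0.04. Trpm7, a channel with a kinase domain, was at 318 CPM in WT E15.5 and 321 in KO E15.5, Trpm5 at 48.4 and 50.6, and Trpm4 at 13.7 and 12.1. Trpm6 was at 4.06 and 5.31 CPM (log2 fold change 0.39, adjusted p = 1.0). Trpm1, Trpm2 and Trpm8 stood below 0.4 CPM in every group mean and were not tested.

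Of 20 channels from other TRP families, 15 were tested and 0 called at either age by any of the 3 tools, with 2 at E13.5 and 3 at E15.5 at an unadjusted p under 0.05 and a median of 0.04 at E15.5. The smallest p at E15.5 was that of Trpv2, with 2.53 CPM in WT and 3.93 CPM in KO (edgeR adjusted p = 0.930). Pkd2 and Mcoln1, among the highest per kilobase, had log2 fold changes of 0.01 and -0.15.

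The ligand genes of the Npbwr1 receptor were low by CPM. Npb, the gene of neuropeptide B, had means of 0.183 to 0.575 CPM over the 4 groups. Npw, the gene of neuropeptide W, had 0 to 0.106 CPM, and neither was tested in the fit of 16 libraries. Per kilobase of exon, the mean over the 16 libraries was 0.618 CPM for Npb and 0.0643 for Npw. The group means of Npbwr1 per kilobase ran from 0.125 in WT E15.5 to 2.16 in WT E13.5. Of 14 related receptors (somatostatin, opioid, galanin and like peptides), 13 were in the table and 7 were tested, with 0 called at either age by any of the 3 tools and 1 at an unadjusted p under 0.05 at each age. Their median log2 fold change was 0.61 at E15.5 and -0.42 at E13.5, over genes of which 6 of 7 lay above 0 at E15.5. Sstr2, a somatostatin receptor, was at 0.964 CPM in WT E15.5 and 1.84 in KO E15.5 (log2 fold change 0.92 ± 0.30, SE, adjusted p = 0.596), with WT libraries at 0.835 to 1.05 and KO libraries at 1.65 to 2.08.

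The other genes named from this receptor list were Sstr4, at 10.9 CPM in WT E15.5 and 11.1 in KO E15.5, and Oprl1, at 1.19 and 1.47. All 5 Gi and Go alpha subunits, through which such receptors signal, were tested and 0 were called at either age by any of the 3 tools, with 1 at an unadjusted p under 0.05 at each age. Their median at E15.5 was 0.19, and Gnai3, Gnai2 and Gnai1, the highest per kilobase, had log2 fold changes of 0.02, 0.24 and 0.14.

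**Figure D5:**
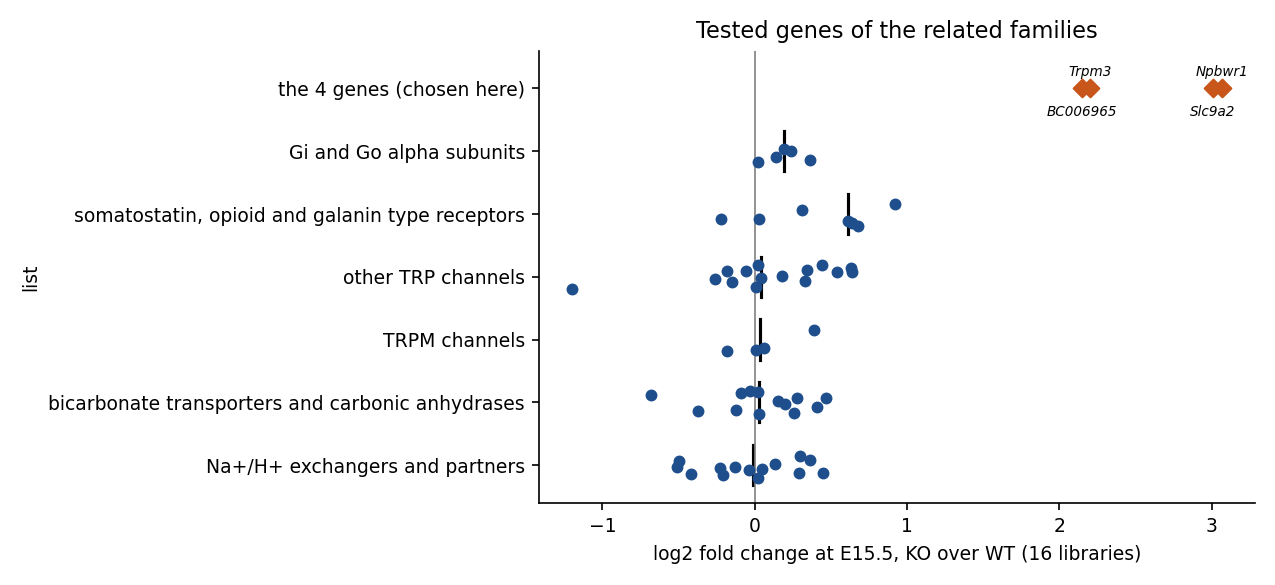
Log2 fold change of KO over WT at E15.5 (16 libraries) for each tested gene of the families related to the members (blue points) with the median of each list (black bar), and for the 4 genes (orange diamonds), which were chosen by this value. List medians run from -0.01 to 0.61.

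In the activin pathway, 13 of 16 ligand and receptor genes were tested, and edgeR called 1, Inhba, at each age, as lower in KO. The median was -0.21 at E13.5 and 0.01 at E15.5. Inha, the inhibin alpha subunit, which pairs with beta subunits in place of another beta, was at 84.7 CPM in WT E15.5 and 27.3 in KO E15.5 (log2 fold change -1.63 ± 0.36, SE, edgeR adjusted p = 0.123). Inha was called by DESeq2 and, with 15 libraries, by edgeR (adjusted p = 0.000548). The list also holds receptor genes of TGF-beta. Of these, Tgfbr1 and Tgfbr3, which were highest per kilobase in the list beside Inha, had log2 fold changes at E15.5 of 0.17 and 0.14.

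Of 14 antagonists and SMAD pathway genes, 13 were tested, 0 called at either age by any of the 3 tools and 1 at an unadjusted p under 0.05 at each age. The smallest p at E15.5 was that of Skil, which restrains SMAD proteins, at 311 CPM in WT and 233 in KO (log2 fold change -0.42, edgeR adjusted p = 0.548). Smurf2 and Smad4, the others of the 3 highest per kilobase, had log2 fold changes of 0.04 each at E15.5.

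Without KO E13.5 replicate 1, edgeR called 0 genes of the 7 families related to the members at either age. In that fit edgeR called 0.0049% of all genes at E13.5 and 1.5% at E15.5, and 12.0% and 12.4% had an unadjusted p under 0.05. At E13.5 the number of family genes with such a p was 0 of 14 for the exchangers and partners, 2 of 13 for bicarbonate transporters and carbonic anhydrases, 0 of 4 for TRPM channels, 1 of 15 for other TRP channels, 1 of 8 for related receptors and 1 of 5 for Gi and Go subunits. At E15.5 it was 5, 2, 1, 5, 1 and 1 in the same order. Of the ligand genes 1 was tested in this fit, with 0 at such a p. The median of the related receptors was then -0.14 at E13.5 and 0.46 at E15.5, with 6 of 8 above 0 at the older age. In the activin lists the call of Inha at E15.5 was the 1 added to those of Inhba.

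Markers of other cell types were compared in the same libraries, where edgeR called 0.149% of all genes at E15.5. Of the 12 neural crest, glia and neuron markers, 8 were tested and 1 was called at E15.5, Erbb3, a receptor of neuregulins, at 12.5 ± 1.68 CPM in WT and 46.9 ± 10.8 CPM in KO (SD, n = 4 each, log2 fold change 1.92 ± 0.17, SE, edgeR adjusted p = 4.5e-05). The summed level of this list was 35.9 to 51.7 CPM in WT E15.5 and 62.4 to 98.9 CPM in KO E15.5, and 74.2 to 99.1 CPM in WT E13.5 and 109 to 126 CPM in KO E13.5, with no overlap at either age. Without Erbb3, the other 11 summed to 25.5 to 37.2 CPM for WT and 25.1 to 36.5 CPM for KO at the older age. At the younger age they summed to 32.3 to 40.4 CPM for WT and 32.4 to 43.8 CPM for KO. The genotypes thus overlapped at both ages once Erbb3 was left out. Foxd3 was at 0 in KO E15.5 and Th at 0 in WT E15.5. With 15 libraries, where 1.5% of all genes were called at E15.5, 2 of the list were called, Erbb3 and Sox10. Sox10 had means of 6.04 CPM in WT E15.5 and 10.7 CPM in KO E15.5 (edgeR adjusted p = 0.00676).

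For the other lists, summed levels in WT E15.5 and KO E15.5 overlapped. The 12 Sertoli markers summed to 1100 to 1570 CPM in WT E15.5 and 1160 to 1830 CPM in KO E15.5, with 0 called by edgeR and 1, Cldn11, a tight junction protein of Sertoli cells, by DESeq2. Cldn11 was at 4.31 CPM in WT E15.5 and 17.0 in KO E15.5 (edgeR adjusted p = 0.0996). Without KO E13.5 replicate 1, edgeR called 4 Sertoli markers at E15.5, in a fit that called 1.5% of all genes. Cldn11 (edgeR adjusted p = 0.000409), Aard (0.0118) and Wt1 (0.0295) were higher in KO. Fshr, the receptor of follicle-stimulating hormone (0.0131), was lower. The 10 fetal Leydig markers summed to 1430 to 3810 and 1500 to 2220 CPM, the 12 markers of mesonephros and surface epithelium to 55.3 to 94.6 and 89.1 to 104 CPM, and the 10 granulosa markers to 143 to 162 and 158 to 195 CPM. In these 3 lists edgeR called 0 at E15.5 with 16 libraries, with 0, 1 and 1 at an unadjusted p under 0.05, and DESeq2 and limma-voom called 0. Without KO E13.5 replicate 1, edgeR called Upk3b of the surface epithelium list, at 27.1 CPM in WT E15.5 and 48.6 CPM in KO E15.5 (adjusted p = 0.0483). The list did not move one way in that fit: 5 of its 11 tested genes lay above 0, and 6 had an unadjusted p under 0.05. Among those below 0 was the epithelial keratin Krt8, at 9.59 CPM in WT E15.5 and 5.85 CPM in KO E15.5 (log2 fold change -0.71, adjusted p = 0.0758). Cdh16 (-2.70, 0.189) and Epcam (-0.49, 0.316), both epithelial adhesion proteins, lay below 0 too, and none of these 3 was called.

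The remaining lists gave no call by the 3 tools at E15.5 either. At E15.5, macrophage markers summed to 117 to 311 CPM for WT and 147 to 328 CPM for KO, stromal markers to 2990 to 4050 and 3660 to 4010, and endothelial markers to 164 to 342 and 197 to 342. Pericyte and smooth muscle markers summed to 587 to 791 and 661 to 865 CPM, germ cell markers to 21.5 to 30.7 and 11.6 to 37.2, and erythroid markers to 80.0 to 2030 and 110 to 1300. With 16 libraries, the endothelial list had 1 gene at an unadjusted p under 0.05 and the other 5 lists had 0. With 15 libraries there were 5 in the stromal list, 3 in the pericyte and smooth muscle list, 2 in the endothelial list and 0 in the other 3, and edgeR called 0 in these 6 lists. The part of cell type shares in the levels of the 4 genes was not tested.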

How the data were processed

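The submitters' processing notes name STAR 2.5.2b with Subread 1.5.2 and featureCounts on the build GRCm38. What was deposited are raw counts of reads for 47729 genes in 16 libraries, which the name of the table calls not stranded. The library kit was Nugen Trio, per the labels' protocols. Of the gene identifiers, 47310 (99.1%) were found in the GRCm38 annotation used here. Replicate numbers follow accession order and pair no libraries.

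All genes were fitted with edgeR 4.0.16 in R 4.3.3 (filterByExpr, TMM, quasi-likelihood test) in a design of 4 groups. P-values were Benjamini-Hochberg adjusted over all genes tested, and called means an adjusted p under 0.05. The SE is the fitted log2 difference over the root of its F statistic, and CPM uses TMM-scaled library sizes. The fit was tested on simulated data. Alternatives used limma 3.58.1 and DESeq2 1.42.0, other scalings, filters and sets of libraries.

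The members and the 20 gene lists were chosen with earlier results of these data known, as was the alternative without KO E13.5 replicate 1. The rule for genes named took the members, Inhba, the called genes of each list (at most 4 by p) or otherwise its gene of smallest p at E15.5, and the 3 genes of each family and pathway list highest per kilobase of exon. It also took the nearest and called neighbours and the 3 genes most correlated with each member. Mfsd9, Trpm1, Trpm2, Trpm8, Foxl2, Foxd3, Th, Sox10, Cldn11, Aard, Wt1, Fshr, Upk3b, Krt8, Cdh16, Epcam, Myo7b and the genes correlated in 15 libraries were named outside it after their values were seen, and a gene that the rule names is not reported here. Promoter and microRNA sequences are RefSeq's (GRCm38.p6).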

Additional observations from a re-analysis of the deposited data

How the results depend on the processing

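At E13.5 none of the 4 genes was called under any of the 24 alternatives tried for each, and the smallest adjusted p was 0.659 for Slc9a2, 0.589 for Npbwr1, 0.695 for Trpm3 and 0.549 for BC006965. Signs at E13.5 were not stable. Without KO E13.5 replicate 1 the log2 fold change was 0.23 for Slc9a2 and 0.27 for Npbwr1, and limma-voom gave -0.10 for BC006965. Leaving out each library in turn gave -0.36 to 0.23 for Slc9a2, -0.49 to 0.27 for Npbwr1, -0.08 to 0.37 for Trpm3 and -0.20 to 0.50 for BC006965. Slc9a2 also turned positive without WT E13.5 replicate 1 and Npbwr1 without WT E13.5 replicate 4, while Trpm3 turned negative (-0.083) without WT E13.5 replicate 4 and BC006965 without KO E13.5 replicate 3. The cause was not tested.

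The number of genes called at E13.5, 1 in the 16 libraries, was 53 by DESeq2 and 1 to 2 with each library left out. At E15.5, 30 were called by edgeR in 16 libraries, 106 by DESeq2, 306 without KO E13.5 replicate 1, 171 in the E15.5 libraries alone and 13 with the KO E15.5 libraries of a shared title number summed. With each library left out the count ran from 12 to 306, falling to 19 or fewer without any of WT E15.5 replicates 1, 2 and 4 or any KO E15.5 library. The E15.5 difference of the 4 genes stayed positive in all 24 alternatives, at 2.85 to 3.17 on the log2 scale for Slc9a2, 2.76 to 3.40 for Npbwr1, 1.98 to 2.46 for Trpm3 and 1.93 to 2.33 for BC006965. Its adjusted p was under 0.05 in 21, 8, 17 and 7 of the 24. The alternatives reuse the E15.5 libraries that chose the genes, so these signs and counts describe the choice and test nothing. The change of BC006965 with age in KO was -0.11 without KO E13.5 replicate 1.

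WT E15.5 levels rest on 4 to 31 counts per library, so their folds are the least precise. No paired analysis was possible because the genotypes share fewer than 2 numbers in the labels: at E15.5 the title number 855 is carried by replicate 2 of WT and by replicate 3 of KO, and 1052 by KO replicates 1 and 2 alone.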
